A study of Mus musculus with 6 samples.

Results

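The genes described here are 10 nuclear genes for the protein quality control of mitochondria, taken by symbol from the 23951 genes of the deposited read count table, and all 10 had a row and passed the filter on low counts. Of these, 5 encode chaperones (Hspa9, Hspd1, Hspe1, Trap1 and Dnaja3) and 5 encode proteases or protease subunits (Lonp1, Clpp, Clpx, Afg3l2 and Yme1l1). Their transcripts were measured by total RNA sequencing of haematopoietic stem cells (HSCs) from the fetal liver of C57BL/6 mice, in 3 libraries labelled RISP wild type (WT) and 3 labelled RISP knockout (KO). RISP is the Rieske iron-sulfur protein, the product of Uqcrfs1 and a catalytic subunit of respiratory complex III. The comparison of KO with WT asks which transcripts differ in stem cells that lack this subunit. The labels give neither the driver of the deletion, the embryonic age and the sort gate nor whether replicates were separate embryos, so the p-values measure the spread of 3 libraries a group, which may be technical.

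Most mitochondrial proteins are made in the cytosol, threaded through the organelle's membranes unfolded, and folded again inside. The Hsp70 of the matrix (Hspa9) pulls them in and holds them with its J-protein partner (Dnaja3), the Hsp60 and Hsp10 chaperonin (Hspd1 and Hspe1) encloses them while they fold, and Trap1 is the Hsp90 of the organelle. Lonp1 and the ClpXP complex (Clpx unfolds, Clpp cuts) degrade matrix proteins, while Afg3l2 and Yme1l1 are membrane-bound AAA proteases whose active sites face the matrix and the intermembrane space. In mammals such genes are known as targets of the mitochondrial unfolded protein response and, for some, of the ATF4-driven integrated stress response. HSCs are known for a low reliance on respiration, and fetal HSCs divide more than adult ones.

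Promoter sequences are shown for a pair of members that share upstream DNA and for 2 members that passed the test. RefSeq's windows on GRCm38.p6 run from 250 bases before to 50 bases after a start. The members' windows, but not the full set of windows, were first filtered by chromosome. That left 9 windows of 8 of the 10 members. Hspa9 and Afg3l2, both among the members that passed the test of KO against WT, had no window after this step. Their promoters were therefore not searched. Hspd1 and Hspe1 start head to head, so the window of Hspe1 also covers most of a window of Hspd1 on the other strand. The 200 bases before the start are printed for that shared region and for Trap1 and Lonp1, members that passed the test of KO against WT, 5′ to 3′ on the gene's own strand. Capitals mark the searched letters described after them.
Hspe1, chr1:55087948-55088147, plus strand: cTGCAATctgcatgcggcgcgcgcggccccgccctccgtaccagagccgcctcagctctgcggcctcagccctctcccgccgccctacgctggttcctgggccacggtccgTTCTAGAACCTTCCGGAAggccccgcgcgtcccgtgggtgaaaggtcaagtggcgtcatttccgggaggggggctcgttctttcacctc
Trap1, chr16:4077811-4078010, minus strand: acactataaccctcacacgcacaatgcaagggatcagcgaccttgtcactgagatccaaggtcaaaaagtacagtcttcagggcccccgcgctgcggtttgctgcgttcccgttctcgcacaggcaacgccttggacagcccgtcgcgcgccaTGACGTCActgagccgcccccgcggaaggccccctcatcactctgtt
Lonp1, chr17:56626904-56627103, minus strand: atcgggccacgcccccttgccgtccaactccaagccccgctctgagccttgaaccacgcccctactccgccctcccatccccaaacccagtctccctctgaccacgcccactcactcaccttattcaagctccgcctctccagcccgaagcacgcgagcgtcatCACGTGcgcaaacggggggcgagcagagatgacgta

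Short motifs were searched on both strands in these windows and in all 32851 windows of the table. The heat shock element, bound by HSF1, was searched as GAANNTTC and as TTCNNGAA, which occur in 7.86% and 8.52% of all windows and overlap each other when repeated. The Hspe1 window holds the unbroken run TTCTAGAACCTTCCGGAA, whose first letter lies 89 bases before the start. A run of that shape, a pair of TTCNNGAA with 2 bases between them, is in 5 of the 32851 windows, and 2 of these 5 are the windows of Hspe1 and Hspd1, which read the same DNA. The same window also holds TGCAAT, the core that C/EBP factors such as CHOP recognise, 199 bases before the start, a motif in 8.4% of all windows. In the Trap1 window the letters TGACGTCA, the cAMP response element, begin 47 bases before the start (1.79% of all windows). Lonp1 has the E-box CACGTG 36 bases before its start, and another window of Hspd1 also holds CACGTG (7.15% of all windows). The composite element read by ATF4 with C/EBP partners, TGATGNAA, is in 3.97% of all windows and in 0 of the 9 member windows. The palindromic core of the NRF1 motif (0.971% of all windows) is also in 0 of the 9. Hspa9 and Afg3l2 have no window among these 9, so neither count covers their promoters. Clpp has 1 copy of TTCNNGAA, inside its transcript, and the windows of Dnaja3, Clpx and Yme1l1 hold none of the searched letters. These matches describe letters in a window and show no binding.

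Library totals were 10191354 to 13189329 counts in WT and 12020128 to 14590844 in KO, and the members had 343 to 19398 counts each, well above the low-count range. Uqcrfs1 had 771 to 1320 counts in WT libraries and 39 to 60 in KO libraries, so all 6 libraries matched their labels. Ptprc, Kit and the other 8 stem and progenitor markers were all detected, with a summed level of 2181 to 2693 CPM (counts scaled to library size, with TMM factors) in WT and 1811 to 2018 in KO, and 5 of these 10 genes were lower in KO. Markers of other fetal liver cells were summed in the same way. In this paragraph, lower, higher and called refer to the edgeR test described below, at an adjusted p under 0.05. That test called 6.41% of all tested genes higher and 4.99% lower. The 10 macrophage markers, with 0 called, came to 78.4 to 948 CPM in WT, with the highest value in WT replicate 3, and to 35.3 to 81.1 in KO, and the 5 endothelial markers (1 called lower) to 153 to 789 and 97.7 to 124 CPM. The 10 erythroid markers with a row (3 called lower) summed to 205 to 440.5 CPM in WT and 35.9 to 67.6 in KO, with Hba-a1, Hba-a2 and Hbb-b1 at 0 in all 6 libraries. The part of the unstated handling of multiply mapped reads in these 0 values was not tested. The 8 hepatoblast markers (2 called lower) summed to 58.9 to 129 CPM in WT and 26.3 to 68.6 in KO. The 7 granulocyte markers (1 called lower) summed to 389 to 483 CPM in WT and 214 to 255 in KO, and the 6 megakaryocyte markers (3 called lower) to 214 to 230 and 103 to 125 CPM. The 5 mast cell and basophil markers (1 called higher, Fcer1a at 0) went from 196 to 205 in WT to 210 to 295 in KO, and the 5 lymphoid markers reached at most 3.86 CPM, with Cd3e at 0. Without WT replicate 3, which had the highest macrophage and endothelial sums, 704 of 12512 tested genes were called higher. The 4 members that passed with all libraries also passed in that fit. Their log2 fold changes were 1.03 for Hspa9, 0.65 for Trap1, 0.74 for Lonp1 and 0.78 for Afg3l2. In the remaining libraries the erythroid, granulocyte and megakaryocyte sums were still higher in every WT library than in every KO library. The part of these cells in the members' values was not tested. In such bulk samples fewer cells of a type and less RNA per cell cannot be told apart.

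Of the 10 members, 4 passed the test upwards, 2 chaperones (Hspa9 and Trap1) and 2 proteases (Lonp1 and Afg3l2), and 0 passed downwards. The test was edgeR's quasi-likelihood test with Benjamini-Hochberg adjustment over 12204 genes and a threshold of 0.05, which called 11.4% of all tested genes, 6.41% higher and 4.99% lower in KO. DESeq2 (6.80% of all tested genes higher, 6.30% lower) and limma-voom (6.51% and 4.90%) also called 4 members higher and 0 lower. At an unadjusted p under 0.05, which 12.7% of all tested genes met as higher and 12.3% as lower, edgeR had 6 members higher and 1 lower. The members' median log2 fold change was 0.33, against -0.02 for all tested genes, with 0.42 for the 5 chaperones and 0.10 for the 5 proteases. Without WT replicate 1, and also without KO replicate 2, the count was 2 of 10, with Hspa9 and Trap1 called and neither protease. Those fits called 597 of 12620 and 448 of 12563 tested genes higher, in that order.

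**Figure D1:**
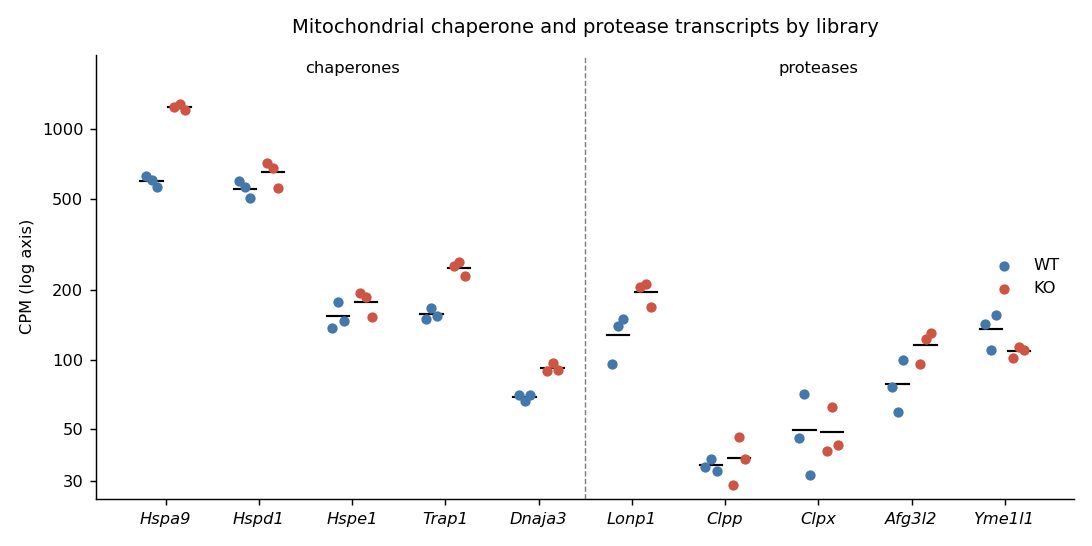
Points give CPM in each of the 3 WT and 3 KO libraries on a log axis for the 5 chaperones (left) and the 5 proteases (right), and bars the group means. Hspa9, Trap1, Dnaja3 and Lonp1 have every KO point above every WT point, as do 15.7% of all tested genes. Yme1l1 has its KO points, 102 to 114 CPM, at the low end of its WT range.

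Hspa9, which encodes the matrix Hsp70, moved the most of the 10. It stood at 629, 599.8 and 563 CPM in WT replicates 1 to 3 and at 1243, 1291 and 1216 CPM in KO replicates 1 to 3. The groups are far apart, and no KO library comes near a WT library. The mean rose from 597 ± 33.0 to 1250 ± 38.1 CPM (SD, n = 3 each), a log2 fold change of 1.07 with a standard error (SE) of 0.09 (edgeR, adjusted p = 2.19e-07). By p-value it ranked 10 among the 12204 genes. As a share of the library's total counts, without TMM factors, Hspa9 took 0.0553% to 0.0615% in WT and 0.120% to 0.133% in KO.

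Trap1, the mitochondrial Hsp90, was at 151, 168 and 155 CPM in WT and 256, 266 and 231 CPM in KO. All KO libraries lie above all WT libraries. The log2 fold change was 0.67 with an SE of 0.12 (edgeR, adjusted p = 0.000663). Dnaja3, the J-protein that stimulates the Hsp70 cycle, was at 70.6, 66.7 and 70.2 CPM in WT and 89.8, 97.1 and 90.5 CPM in KO. Its groups also do not overlap, as for 15.7% of all tested genes in that direction, but it did not pass the test, with a log2 fold change of 0.42, an SE of 0.15 and a 95% interval of 0.10 to 0.74 (edgeR, adjusted p = 0.0865).

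The chaperonin genes stayed under the threshold. Hspd1, for the Hsp60 ring, was at 593, 560.2 and 506 CPM in WT and 716, 682 and 554 CPM in KO, so that KO replicate 3 lies inside the WT range. Hspe1, for the Hsp10 lid, was at 138, 178 and 148 CPM in WT and 196, 187 and 153 CPM in KO, again with KO replicate 3 inside the WT range. Log2 fold changes were 0.23 for Hspd1 (95% interval 0.01 to 0.46, edgeR, adjusted p = 0.184) and 0.21 for Hspe1 (95% interval -0.07 to 0.49, adjusted p = 0.365), where intervals are per gene and not adjusted. Without 1 library Hspe1 ranged from 0.13 (without WT replicate 1) to 0.32 (without WT replicate 2), with no call. When offsets for GC content and transcript length were fitted per library, Hspd1 stood at 0.33 (edgeR, adjusted p = 0.0396) and Hspe1, whose longest annotated transcript has 964 bases, at 0.46 (adjusted p = 0.0206). In that fit 4 of 5 chaperones passed, all but Dnaja3, and 0 of 5 proteases. It called 659 of 12204 tested genes higher and 529 lower. The head-to-head starts of Hspd1 and Hspe1 overlap in the GRCm38 annotation, and both genes are known to have processed copies in the genome. No source used here states how the counter treated strand or multiply mapped reads, and the part of such reads in the pair's counts was not tested.

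Among the proteases, Lonp1, for the main soluble protease of the matrix, was at 95.6, 140.0 and 151 CPM in WT and 206, 214 and 169 CPM in KO. WT replicate 1 is low, and every KO library is above every WT library, as for 15.7% of all tested genes. Its log2 fold change was 0.61 with an SE of 0.16 (edgeR, adjusted p = 0.0144). The call was lost when WT replicate 1 was left out (value 0.43, adjusted p = 0.0658), and likewise for KO replicate 1 (adjusted p = 0.0572) and KO replicate 2 (adjusted p = 0.0906). It was also lost with length and GC offsets (0.45, adjusted p = 0.0687).

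Afg3l2, the catalytic subunit of the m-AAA protease of the inner membrane, was at 76.4, 59.2 and 100.2 CPM in WT and 95.9, 123 and 130.4 CPM in KO. KO replicate 1 lies below WT replicate 3, so the groups overlap. The log2 fold change of 0.57 (SE 0.18) was just past the threshold (edgeR, adjusted p = 0.0494). Leaving out WT replicate 1 (adjusted p = 0.130), WT replicate 2 (0.185), KO replicate 2 (0.174) or KO replicate 3 (0.205) ended the call, with fold changes of 0.55, 0.40, 0.53 and 0.48. It also ended with length and GC offsets (0.56, adjusted p = 0.0562) and upper quartile scaling (0.55, adjusted p = 0.058), at nearly the same fold change.

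Yme1l1, the i-AAA protease that faces the intermembrane space, was the member with the lowest fold change. It was at 143, 111 and 156 CPM in WT and 102, 114 and 111 CPM in KO, so WT replicate 2 falls within the KO range. The log2 fold change was -0.33 with a 95% interval of -0.63 to -0.02 and did not pass (edgeR, adjusted p = 0.167), and it was negative in all 16 alternative settings. Its locus overlaps Mastl in the GRCm38 annotation, which had 89 to 378 counts in WT and 322 to 676 in KO against 1188 to 2027 and 1406 to 1715 for Yme1l1.

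The 2 parts of ClpXP gave no difference that could be detected. Clpp, the proteolytic chamber, was at 34.4, 37.3 and 33.2 CPM in WT and 28.6, 46.4 and 37.4 CPM in KO, with KO libraries on both sides of the WT range. Clpx, the unfoldase that feeds it, was at 46.1, 71.4 and 31.8 CPM in WT and 40.3, 62.8 and 43.0 CPM in KO, a spread within each group far beyond the difference of the means. The 95% intervals of the log2 fold changes, -0.39 to 0.59 for Clpp and -0.58 to 0.53 for Clpx, do not reach the value of Hspa9. The sign of Clpx turned in 9 of 16 alternatives and that of Clpp in 1.

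**Figure D2:**
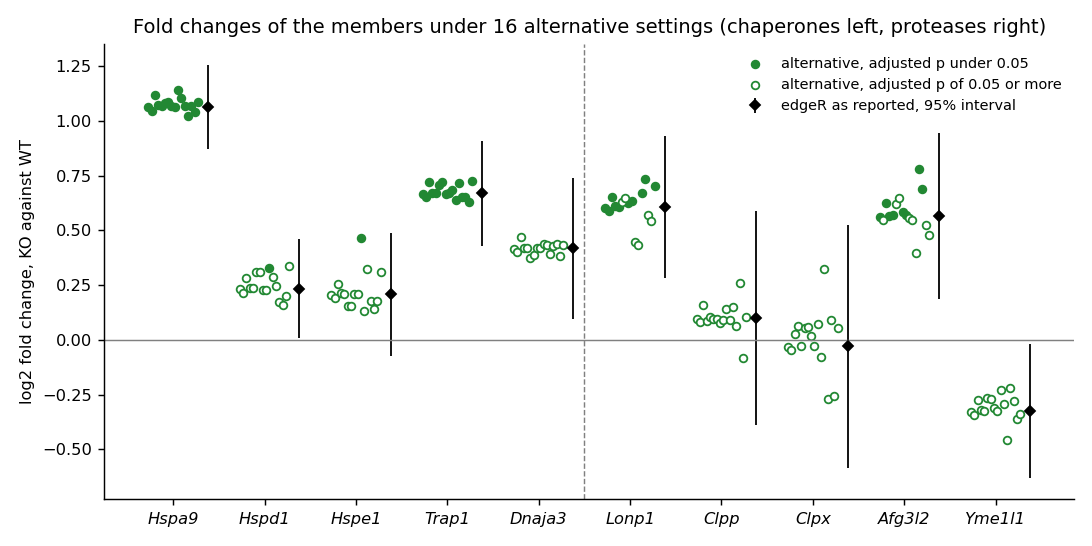
Green points give each member's log2 fold change, KO against WT, in 16 alternative settings (filled where the adjusted p was under 0.05), and black diamonds the edgeR value with its 95% interval. Hspa9 and Trap1 are filled throughout, at 1.03 to 1.14 and 0.63 to 0.73, Lonp1 and Afg3l2 are a mixture, and Clpx straddles 0.

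Chaperones were set against proteases within each library. The mean log2 CPM of the 5 chaperones exceeded that of the 5 proteases by 1.67, 1.62 and 1.504 in WT replicates 1 to 3 and by 2.15, 1.78 and 1.82 in KO replicates 1 to 3. The KO libraries are thus higher, by 0.32 on average, and KO replicate 1 is the farthest from WT. Without it the difference was 0.20. Chaperone means were 7.80, 7.86 and 7.75 in WT and 8.37, 8.39 and 8.20 in KO on the log2 CPM scale. Protease means were 6.12, 6.24 and 6.24 in WT and 6.22, 6.61 and 6.37 in KO, so the protease means overlap between groups while the chaperone means do not. Summed, the 5 chaperones took 0.142% to 0.155% of the total counts of a WT library and 0.237% to 0.260% of those of a KO library, and the 5 proteases 0.0387% to 0.0465% and 0.0458% to 0.0577%. These averages are descriptions over a few genes, and Hspa9 was the largest part of the chaperone reads in every library.

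Ratios of counts between 2 genes of the same library are free of library scaling, and 13 were computed. For each, the exact two-sided permutation test over libraries can give no p below 0.1 with 3 libraries against 3, and no ratio passed after Benjamini-Hochberg adjustment. Hspa9 had 1.06, 1.07 and 1.11 counts per Hspd1 count in WT and 1.74, 1.89 and 2.19 in KO (exact permutation p = 0.1, adjusted p = 0.144). The 2 main matrix chaperones were thus near parity in reads in WT and apart in every KO library. Hspd1 per Hspe1 count was 4.30, 3.15 and 3.41 in WT and 3.66, 3.64 and 3.61 in KO (exact permutation p = 1). That ratio was close to constant among KO libraries, although KO replicate 3 was the lowest of them for each of the 2 genes in CPM.

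Partner subunits did not all follow. Grpel1, the nucleotide exchange factor of the matrix Hsp70, was at 40.6, 21.5 and 35.2 CPM in WT and 35.1, 23.4 and 29.7 CPM in KO, with no call (edgeR, adjusted p = 0.805). Hspa9 therefore had 15.5, 27.9 and 15.97 counts per Grpel1 count in WT and 35.4, 55.3 and 41.0 in KO (exact permutation p = 0.1, adjusted p = 0.144). Per Dnaja3 count, Hspa9 had 8.01 to 8.999 counts in WT and 13.3 to 13.9 in KO. Clpx per Clpp was 0.958 to 1.91 in WT and 1.15 to 1.41 in KO, overlapping.

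Another ratio set the 2 inner membrane AAA proteases side by side. Afg3l2 had 0.535, 0.535 and 0.641 counts per Yme1l1 count in WT and 0.943, 1.08 and 1.18 in KO (exact permutation p = 0.1, adjusted p = 0.144). Neither gene separates the groups alone, but their ratio does. Of all tested genes, 15.7% had every KO library above every WT library and 14.5% every KO library below. The share of all gene pairs whose ratio separates the groups was not computed. Lonp1 per Yme1l1 was 0.669 to 1.27 in WT and 1.53 to 2.03 in KO, also apart. Spg7, which encodes the paraplegin subunit that joins Afg3l2 in the m-AAA protease, was at 63.5 ± 9.28 CPM in WT and 64.4 ± 4.02 in KO (SD, n = 3 each, edgeR, adjusted p = 0.963), and Afg3l2 per Spg7 overlapped at 0.823 to 1.87 and 1.40 to 2.04. The related subunit gene Afg3l1 was at 47.7 ± 5.18 and 54.0 ± 5.35 CPM (SD, n = 3 each, edgeR, adjusted p = 0.623).

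**Figure D3:**
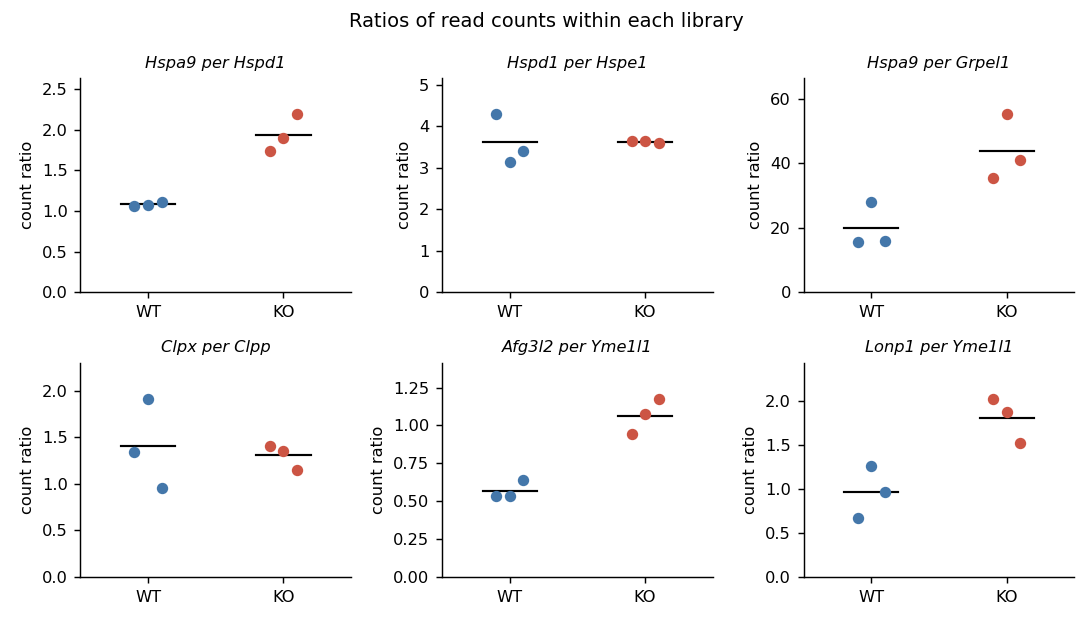
Each panel gives the ratio of 2 genes' read counts in each of the 3 WT and 3 KO libraries, with bars at the group means and axes that start at 0. Hspa9 per Hspd1 goes from 1.08 to 1.94 on average and Afg3l2 per Yme1l1 from 0.570 to 1.07, while Hspd1 per Hspe1 (3.62 and 3.64) and Clpx per Clpp (1.40 and 1.30) overlap between groups.

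Levels were compared between genes per transcript length, on the deposited RPKM scale. In WT the chaperonin and Hsp70 genes formed the top, with Hspd1 at 268 ± 7.75, Hspe1 at 247 ± 35.9 and Hspa9 at 226 ± 10.1 RPKM (SD, n = 3 each). Hspe1 does not differ from either neighbour beyond its spread, while each Hspd1 value (262 to 277) is above each Hspa9 value (214 to 233). In KO that order turned, with Hspa9 at 470 to 496 RPKM and Hspd1 at 303 to 357 RPKM. A wide gap follows. Yme1l1 (51.8 ± 8.71 RPKM) and Trap1 (45.1 ± 2.96) came next in WT and overlapped, and in KO Trap1 (66.3 to 83.6 RPKM) was above Yme1l1 (40.1 to 43.9 RPKM) in every library. Lonp1 (30.5 ± 7.25 RPKM in WT), Dnaja3 (23.6 ± 0.739), Clpp (22.8 ± 1.68), Clpx (20.1 ± 8.87) and Afg3l2 (19.0 ± 5.19) followed, each within the spread of its neighbour. With limma on log2(RPKM + 1), Hspa9 and Trap1 were the members that passed, and Lonp1 and Afg3l2 did not (adjusted p = 0.0847 and 0.138). That fit called 348 of 12204 tested genes higher and 235 lower.

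**Figure D4:**
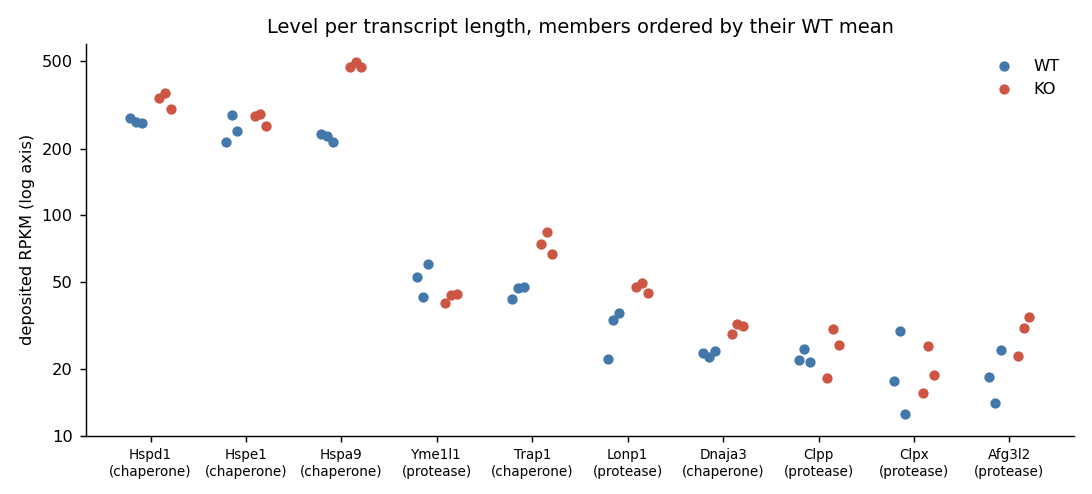
Points give the deposited RPKM of each member in the 3 WT and 3 KO libraries on a log axis, ordered by the WT mean. Hspd1, Hspe1 and Hspa9 lie above 200 in every library, the other 7 members below 90, and Hspa9 leads in KO.

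Among other genes of mitochondrial protein handling few passed the test. Of 17 partner chaperones and scaffolds, 2 were higher and 0 lower (median log2 fold change 0.06), of 15 other proteases and peptidases 0 and 0 (median 0.18), and of 20 import channel and carrier genes 0 and 0 (median -0.10). DESeq2 called 1 import gene lower and limma-voom 0, neither called a protease, and at an unadjusted p under 0.05 edgeR had 3 proteases higher and 1 lower, and 1 import gene in each direction. That is 2 of 52 higher, set against 6.41% of all tested genes. Without WT replicate 2 it was 3 of 52, as Tomm70a also passed, set against 717 of 12621 tested genes. Clpb, a disaggregase of the intermembrane space, was at 34.9, 37.5 and 42.6 CPM in WT and 86.7, 88.5 and 63.4 CPM in KO. All KO libraries are well above WT, with KO replicate 3 the lowest of them. Every KO library was above every WT library for 15.7% of all tested genes. The log2 fold change of Clpb was 1.05 with an SE of 0.19 (edgeR, adjusted p = 0.00106), and it was not past the threshold with limma on log2(RPKM + 1) (adjusted p = 0.0669). Atad3a, an AAA ATPase of the inner membrane, was at 100.1, 103 and 78.3 CPM in WT and 170.3, 149 and 150.2 CPM in KO (log2 fold change 0.74, SE 0.14, edgeR, adjusted p = 0.00182). It passed in all 16 alternatives.

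The other peptidases and import genes gave values in either direction. Oma1, the stress-activated inner membrane protease, was at 28.2 ± 1.78 CPM in WT and 21.0 ± 2.84 in KO, and Parl, the rhomboid protease, at 40.4 ± 3.95 and 28.1 ± 3.56 (SD, n = 3 each). Every KO library was below every WT library for both, as for 14.5% of all tested genes, but neither passed (edgeR, adjusted p = 0.352 and 0.158). Tomm7, a small subunit of the outer membrane channel, was at 104, 87.3 and 76.6 CPM in WT and 59.2, 64.1 and 64.5 CPM in KO. It missed the threshold narrowly (edgeR, log2 fold change -0.51, adjusted p = 0.0540) and passed with DESeq2 (adjusted p = 0.0342).

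Relatives in other compartments were read beside the members. Hspa8, the main cytosolic Hsp70, was at 4320, 3716 and 4193 CPM in WT and 3483, 3122 and 2817 CPM in KO. Like 14.5% of all tested genes, it had every KO library below every WT library. It fell by 0.38 on the log2 scale (SE 0.09, edgeR, adjusted p = 0.00929), a call lost without WT replicate 1 (adjusted p = 0.0547), KO replicate 2 (0.0570) or KO replicate 3 (0.0728) and with limma on log2(RPKM + 1) (adjusted p = 0.128). Hspa5, the Hsp70 of the endoplasmic reticulum, was at 447, 325 and 481 CPM in WT and 318, 345 and 291 in KO (log2 fold change -0.39, edgeR, adjusted p = 0.0540). Hspa9 had 0.134 to 0.161 counts per Hspa8 count in WT and 0.357 to 0.432 in KO, and 1.17 to 1.84 and 3.74 to 4.18 per Hspa5 count. The 3 Hsp70 genes thus had fold changes of differing sign in the same libraries. Heat-inducible Hspa1b had at most a few CPM, at 1.88 ± 1.24 in WT and 0.557 ± 0.902 in KO, and Hspa1a did not pass the filter on low counts. The handling of multiply mapped reads is not stated, and its part in these low counts was not tested.

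For the Hsp90 family, cytosolic Hsp90ab1 rose from 4124 ± 257 to 5514 ± 310.2 CPM (SD, n = 3 each, log2 fold change 0.42, edgeR, adjusted p = 0.00159). Trap1 had 0.0381 to 0.0386 counts per Hsp90ab1 count in WT and 0.0434 to 0.0498 in KO. Hsp90aa1 and the endoplasmic reticulum member Hsp90b1 were not called, with log2 fold changes of 0.20 and -0.04 (edgeR, adjusted p = 0.199 and 0.885). Of 25 tested cytosolic chaperone genes, 2 were higher (Hsp90ab1 and the Hsp70-Hsp90 adaptor Stip1, at 0.63) and 1 lower (Hspa8). Of all tested genes, 6.41% were called higher and 4.99% lower. The median of the 25 was -0.05. The 8 subunits of the cytosolic chaperonin, relatives of Hspd1, ran from -0.17 to 0.15 with 0 called by edgeR (also at an unadjusted p under 0.05), DESeq2 or limma-voom, and Dnaja1 and Dnaja2 stood at -0.15 and 0.02.

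Of 12 chaperone genes of the endoplasmic reticulum, edgeR called 0 higher and 2 lower (4.99% of all tested genes lower), with a median log2 fold change of -0.35. DESeq2 called 6 lower (6.30% of all) and limma-voom 4 (4.90% of all), and at an unadjusted p under 0.05 edgeR had 0 higher and 8 lower (12.3% of all lower). Calr, the lectin chaperone calreticulin, went from 1101 ± 215 to 729 ± 66.9 CPM (SD, n = 3 each, edgeR, adjusted p = 0.00324), a call lost with limma on log2(RPKM + 1) (adjusted p = 0.147). Dnajc3, which encodes a J-protein also known as p58IPK, fell by 0.72 on the log2 scale (edgeR, adjusted p = 0.00794), with no call without KO replicate 2 (adjusted p = 0.0551) or with limma on log2(RPKM + 1) (adjusted p = 0.0590).

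**Figure D5:**
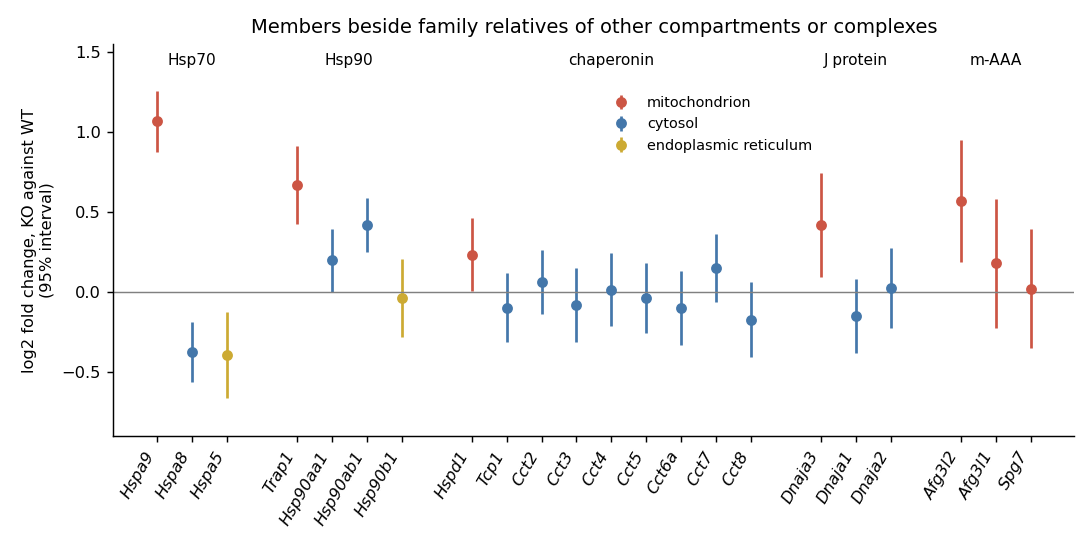
Points give log2 fold changes, KO against WT, with 95% intervals, for members and their family relatives, coloured by compartment. Hspa9 is at 1.07 while Hspa8 and Hspa5 are at -0.38 and -0.39, and the 8 cytosolic chaperonin subunits lie around 0.

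Transcription factors linked to mitochondrial stress were higher in the same libraries. Atf4 was at 85.2 to 103 CPM in WT and 341 to 370.0 in KO, and Atf5, a factor tied to the mitochondrial unfolded protein response, at 2.41 to 4.55 and 39.8 to 45.3 CPM. Ddit3, the gene of CHOP, was at 2.85 to 8.47 CPM in WT and 27.1 to 29.9 in KO. All 3 passed (edgeR, log2 fold changes 1.95, 3.71 and 2.31). Cebpb and the heat shock factor gene Hsf1 did not, at 0.65 and 0.38 (edgeR, adjusted p = 0.0518 and 0.356), and Jun was at -0.36 (adjusted p = 0.0744). DESeq2 called 4 of these 6 genes higher, Cebpb included (adjusted p = 0.0413), and limma-voom 3. The levels of these factors' proteins were not measured.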

How the data were processed

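RNA was read in 6 mouse fetal liver HSC libraries (3 WT, 3 KO), prepared by a low-input stranded total RNA kit and sequenced on an Illumina NextSeq500, per the labels' protocols. The authors deposited whole-number read counts per gene symbol and RPKM values (reads per unit of gene length and depth) in 2 tables of 23951 genes. Per the submitters' processing notes, TopHat and Cufflinks were used on the mm9 build. No source used here gives versions, the read counter, the annotation or the strand setting. Genes kept by filterByExpr were tested in R 4.3.3 by edgeR 4.0.16's robust quasi-likelihood test on genotype, with TMM factors, Benjamini-Hochberg adjusted over the 12204 genes kept. SEs follow from the log2 fold change and F. CPM use TMM library sizes. The code was tested on simulated counts.

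The 16 alternatives were DESeq2 1.42.0, upper quartile and total count scaling, limma-voom (limma 3.58.1), no filter, limma on log2(RPKM + 1) and log2(RPKM + 0.1), a replicate block, Y-linked level as a covariate, offsets for length and GC of the longest GENCODE transcript, and leaving out each of the 6 libraries. All 10 members had a length and GC value. Replicate pairs differed by chi-square values of 21.7 to 43.1 per degree of freedom, so none agreed within counting noise. Members, lists, motifs and count ratios were chosen with earlier results of these data known. Named genes are the members, Uqcrfs1, called genes of the context lists and family relatives of the members; Grpel1, Oma1, Parl, Tomm7, Tomm70a, Mastl and the other factors were named after their values were seen. Coordinates are RefSeq's on GRCm38.p6, not the mm9 build of the counts. Count ratios were tested with exact permutation. PCR reads without molecular identifiers are not independent molecules.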

Additional observations from a re-analysis of the deposited data

How the results depend on the processing

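Hspa9 and Trap1 passed in all 16 alternatives. Over those that left out 1 library, all genes called ranged from 448 to 717 higher and 264 to 546 lower, against 782 and 609, members higher from 2 to 4, proteases higher from 0 to 2 against 2, and wider mitochondrial genes from 2 to 3 higher and 0 to 1 lower. With limma on log2(RPKM + 1) the counts were 348 higher and 235 lower genes, 2 members, 0 proteases and 1 wider gene, and with log2(RPKM + 0.1) they were 337, 223, 2, 0 and 1. Length and GC offsets gave 4 chaperones and 0 proteases, with 659 genes called higher. Upper quartile scaling gave 1 protease, with 739 genes called higher. DESeq2, upper quartile scaling and no filter each called 1 wider gene lower, Tomm7. Clpp ranged from -0.082 (without KO replicate 2) to 0.26 and Clpx from -0.27 to 0.33 over fits that left out 1 library. Clpx turned to 0.027 with total count scaling, 0.064 with limma-voom, 0.052 and 0.058 with limma on log2(RPKM + 1) and log2(RPKM + 0.1), and 0.072 with length and GC offsets. The chaperone excess over proteases was higher in KO than in WT by 0.20 (without KO replicate 1) to 0.39 (without KO replicate 2). The replicate block called 762 genes higher, 579 lower and 4 members, and put Clpx at 0.017. The labels do not say that replicate numbers pair libraries, and same-numbered libraries correlated at 0.032, 0.053 and 0.0018 in their deviations from the group means. With 3 libraries a group, such values cannot tell whether same-numbered libraries shared a source or batch. Y-linked genes summed to 1.30 CPM in WT replicate 1 and 0 in KO replicate 1, against 47.6 to 157 CPM in the other libraries. Clpp and Clpx, at 343 to 697 and 412 to 944 counts a library, had the widest intervals of the members, and whether depth or the number of libraries sets them was not tested.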
